A study of Mus musculus with 6 samples.

Results

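Cell cycle genes were examined in the RNA-seq libraries of PEMs, which were sequenced to find the transcripts that differ when macrophages lack Tim-4. The set held 41 genes chosen by symbol, all of which were listed among the 15415 genes of the table. By role, 20 act in mitosis and in the G2 phase before it, 14 in DNA replication and nucleotide supply, 5 are the G1 cyclins Ccnd1, Ccnd2, Ccnd3 and Ccne1 with the transcription factor E2f1, and 2 encode the cyclin-dependent kinase (CDK) inhibitors p21 (Cdkn1a) and p27 (Cdkn1b).

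PEMs are macrophages washed out of the mouse peritoneal cavity after injection of starch. The 3 PEM-CKO libraries were made from LysM-Cre; Tim-4 fl/fl animals, whose floxed Tim-4 gene is deleted by Cre under the lysozyme promoter in macrophages and other myeloid cells. The 3 PEM-Control libraries were made from Tim-4 fl/fl mice, which carry the same floxed allele. No Cre is named for these, so an effect of Cre and one of the Tim-4 deletion cannot be told apart. All 6 libraries are labelled as LPS-treated. The mice of the study were males aged 6 to 8 weeks. Libraries were grouped by title because the genotype entries name the groups the other way round. The labels do not say that the libraries came from separate mice, so the p-values measure the spread between these samples, which may be technical.

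Cells commit to division in G1, when D-type and E-type cyclins activate CDKs, the retinoblastoma proteins are inactivated and E2F factors switch on replication genes. The MCM2-7 helicase is then loaded by CDC6 and CDT1, and DNA is copied with the sliding clamp PCNA. Mitotic genes follow in G2 and M under B-MYB and FOXM1, largely through promoter elements called CHR and CCAAT boxes, whereas p21 and p27 hold CDKs in check. Elicited macrophages divide little, and LPS is known to restrain their division.

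The libraries held between 36170767 and 42217558 reads, recovered from the deposited FPKM values (reads scaled by gene length and library size). Timd4, which encodes Tim-4, had 0.333, 0.394 and 0.246 FPKM in PEM-CKO libraries 1 to 3 and 19.5, 12.0 and 1.19 FPKM in PEM-Control libraries 1 to 3 (limma adjusted p = 0.0715, and 0.0436 with the replicate number as a block). PEM-Control library 3 therefore lay near the PEM-CKO libraries for Timd4, and values without it are given below for genes shown by library whose call or overlap rested on it. Without it, 5.68% of the genes of the main test and 4.65% of the genes with at least 10 reads in every library were called higher. The macrophage genes Adgre1, Csf1r, Cd68 and Itgam were expressed in all 6 libraries, between 83.3 and 1685 FPKM. Lyz2, the locus from which Cre is expressed, had 41.4, 4656 and 106 FPKM in PEM-CKO libraries 1 to 3 and between 7090 and 8482 FPKM in PEM-Control, so PEM-CKO library 2 stood apart from its group for this gene. The libraries are bulk RNA, in which fewer cells of a type and less RNA per cell cannot be told apart.

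Most cell cycle genes were expressed at a low level in both groups. Of the 41 genes, 23 reached a mean of 1 FPKM in at least one group and entered the main test, and 18 did not. The test was limma on log2(FPKM + 1) over 9030 genes, with Benjamini-Hochberg adjusted p-values and a threshold of 0.05. Fold changes on this scale are PEM-CKO over PEM-Control and understate the change of low genes. Only 6 of the 20 mitotic genes reached the filter, against 11 of 14 replication genes, 4 of 5 G1 genes and both inhibitors. Ccnb1 and Rrm2 reached it in PEM-CKO alone. Cdkn1a, between 254 and 392 FPKM, and Pcna, between 98.7 and 155 FPKM, stood far above the rest. Mki67 lay between 19.9 and 43.6 FPKM and Ccnd2 between 7.13 and 24.7 FPKM, whereas Cenpf, which encodes a kinetochore protein, lay between 0.0424 and 0.127 FPKM.

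**Figure D1:**
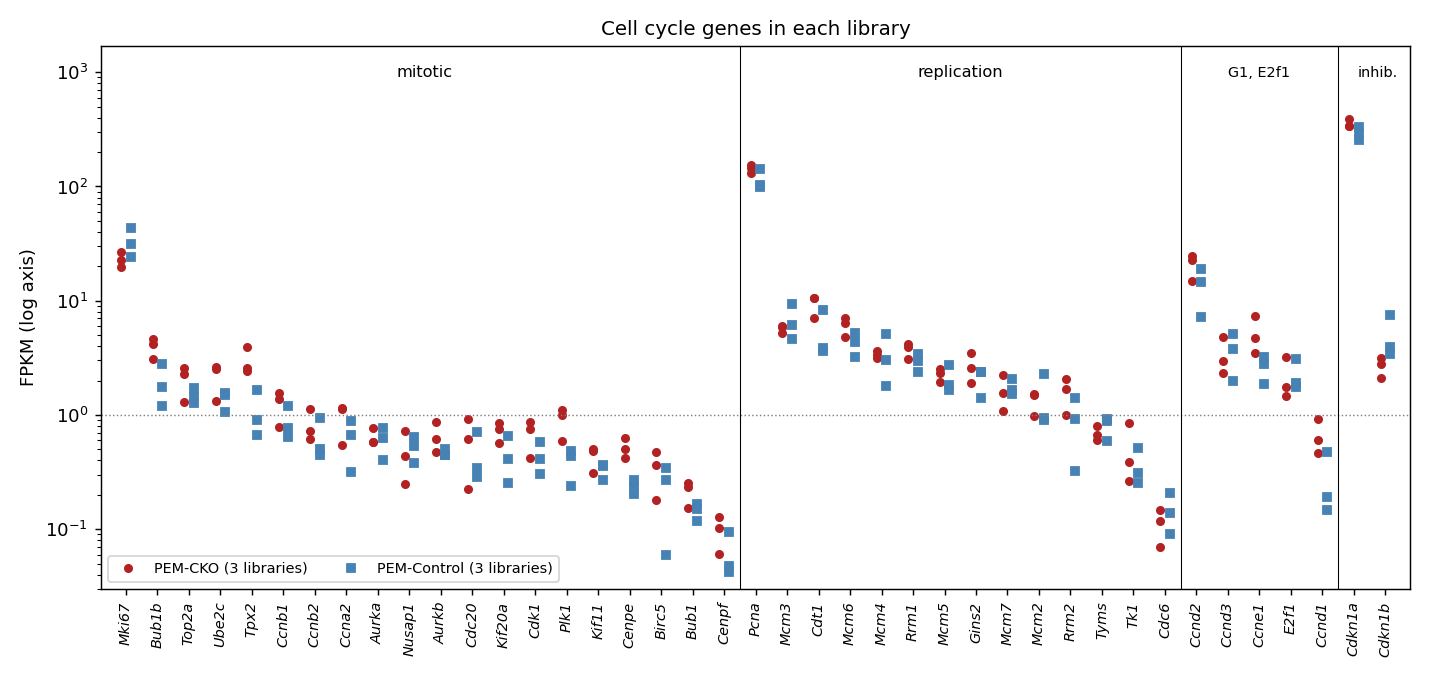
FPKM of the 41 cell cycle genes on a log axis, grouped by role and ordered within each role by the PEM-Control mean. Each point is 1 library (circles PEM-CKO, squares PEM-Control), and the dotted line marks 1 FPKM. Cdkn1a and Pcna are near or above 100 FPKM in every library, while 14 of the 20 mitotic genes have group means below 1 FPKM.

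In the main test, 1 of the 23 tested members rose in PEM-CKO and none fell, beside 2.57% of all tested genes that rose and 4.74% that fell. The gene that rose was Tpx2. A further 4 tested members had an unadjusted p below 0.05 without passing the adjusted threshold, and these were Bub1b, Cdt1, Ccne1 and Cdkn1b. In all, 5 of 23 tested members had an unadjusted p below 0.05, beside 2494 of all 9030 tested genes. With no filter on low values, so that all 41 genes were fitted, limma called 0 of them. Of the 41, 7 had an unadjusted p below 0.05, beside 3626 of all 15415 genes. In that unfiltered fit, 18 of 20 mitotic genes had a log2 fold change above 0 (median 0.20), as did 10 of 14 replication genes (median 0.11), beside 37.8% of all 15415 genes (median -0.04). The ratio of the group means in FPKM had a median of 1.50 over the mitotic genes, 1.17 over the replication genes and 0.888 over all genes. It was above 1 for 18 of 20 mitotic and 9 of 14 replication genes, beside 36.9% of all genes, Mcm2 being above 0 on the log scale with a ratio of 0.965. The ratio was at least 1.5 for 10 of 20 mitotic and for 2 of 14 replication genes. The share of all genes at that ratio was not counted, so these counts have no background. Among the members of the main test, 5 of 6 mitotic and 9 of 11 replication genes had a log2 fold change above 0 (medians 0.33 and 0.24), beside 36.5% of all tested genes. After rescaling by the median of ratios these were 5 of 6 and 10 of 11, beside 51.6% of all tested genes. Both counts include a gene that reached the filter in PEM-CKO alone (Ccnb1 and Rrm2). These counts describe the sets, and the roles were not tested against each other.

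**Figure D2:**
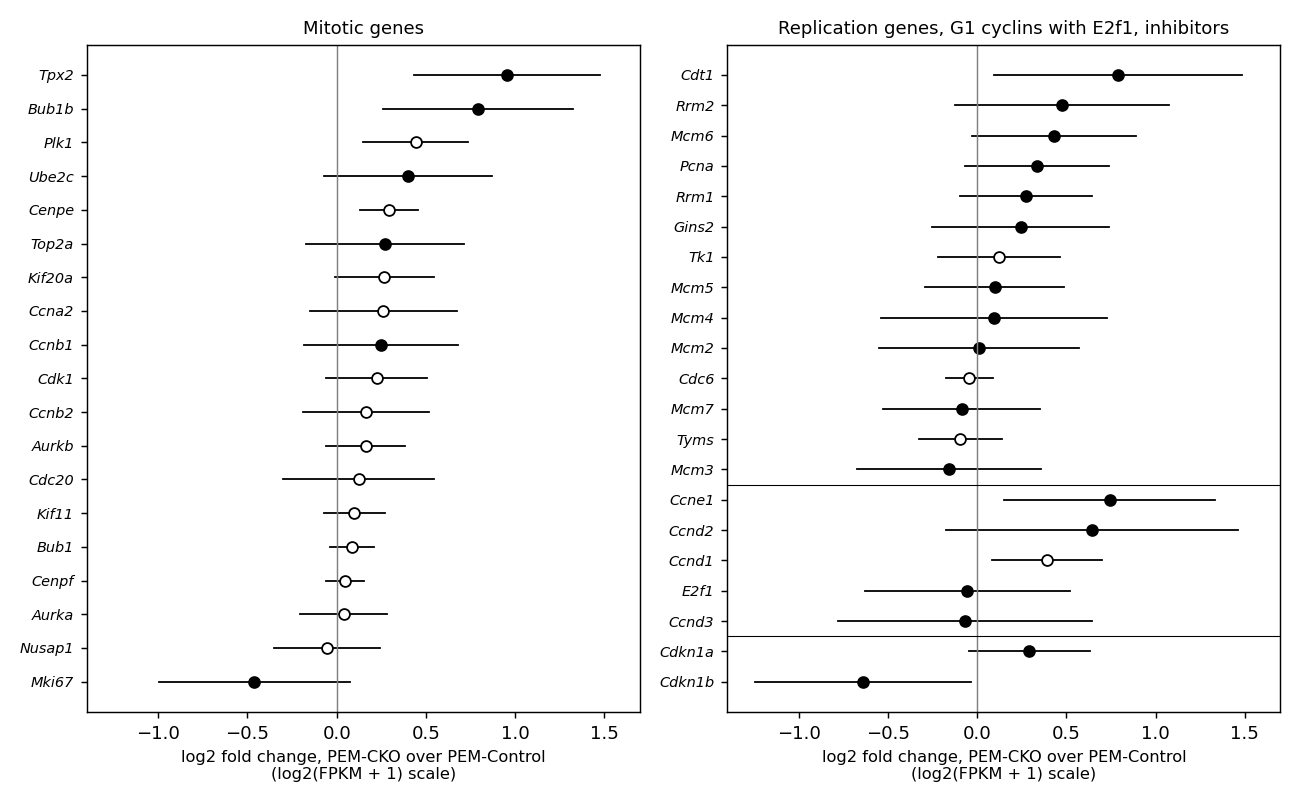
Log2 fold change of PEM-CKO over PEM-Control on the log2(FPKM + 1) scale with its 95% confidence interval (not adjusted for the number of genes), for mitotic genes (left) and for the replication, G1 and inhibitor genes (right). Filled points are genes of the main test and open points are low genes, taken from the fit over genes with at least 10 reads in every library. Birc5 is left out because 1 library held 8 reads. In the left panel the intervals of Tpx2, Bub1b, Plk1 and Cenpe lie above 0 and that of Mki67 spans 0. In the right panel those of Cdt1, Ccne1 and Ccnd1 lie above 0 and that of Cdkn1b below, and among the replication genes those of all but Cdt1 span 0.

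Of all 41 genes, Tpx2 had the largest ratio of group means. Tpx2, which encodes the spindle factor that activates Aurora A, had 2.59, 3.97 and 2.42 FPKM in PEM-CKO libraries 1 to 3 and 0.669, 0.901 and 1.65 FPKM in PEM-Control libraries 1 to 3. Every PEM-CKO library was above every control library, and control library 3 was the highest control. The mean rose 2.79-fold (log2 fold change 0.95 ± 0.22, SE; limma adjusted p = 0.0473). The call was close to the threshold. With any library other than control 3 left out, Tpx2 no longer passed (adjusted p up to 0.1798, without PEM-CKO library 2), and without control library 3 its adjusted p was 0.0124. With no filter the adjusted p was 0.0836. A block for the replicate number gave 0.0496 in the main test, and 0.0528, which did not pass, over genes with at least 10 reads in every library.

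Bub1b, Cenpe and Plk1 were singled out after their values were seen. Bub1b encodes the spindle checkpoint kinase BUBR1 and had 3.08, 4.16 and 4.64 FPKM in PEM-CKO and 1.19, 1.77 and 2.79 FPKM in PEM-Control libraries 1 to 3. The groups did not overlap, and the 2.07-fold difference of the means missed the threshold (log2 fold change 0.79 ± 0.23, SE; limma adjusted p = 0.0769). It passed when the replicate number was a block (adjusted p = 0.0277, where 3.90% of all tested genes were called higher), after rescaling by the median of ratios (adjusted p = 0.0359, where 3.80% were called higher) and without control library 3 (adjusted p = 0.0179). Without PEM-CKO library 2 the adjusted p was 0.258.

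Cenpe, the gene of a kinetochore motor, stayed below the filter, with 0.420, 0.634 and 0.5003 FPKM in PEM-CKO and 0.204, 0.270 and 0.237 FPKM in PEM-Control. These values rest on 138, 209 and 160 reads against 63, 82 and 67 reads. The groups were separate, with a 2.19-fold difference of the means. In limma over genes with at least 10 reads in every library, which called 2.23% of its 11014 genes as higher, the log2 fold change was 0.29 with an adjusted p of 0.0516, and with the replicate number as a block, where 3.06% were called higher, the adjusted p was 0.0489. Plk1, which encodes Polo-like kinase 1, had 0.591, 1.10 and 0.993 FPKM in PEM-CKO and 0.240, 0.441 and 0.487 FPKM in PEM-Control (limma adjusted p = 0.0821 in the same fit, 0.0325 with the block). The same low genes were also tested with voom (limma on the log of the recovered reads, weighted for their precision), where 3.16% of 11014 genes were called higher. There 3 of 40 members passed, namely Tpx2 (adjusted p = 0.0334), Bub1b (0.0363) and Cenpe (0.0325).

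The remaining mitotic genes overlapped between the groups. With at least 10 reads in every library and the replicate number as a block, limma gave 9 of 19 mitotic genes an unadjusted p below 0.05. Without the block 4 of 19 had one. Over all 11014 genes the counts were 3173 with the block and 2914 without it. The 3 mitotic genes called with this block were Bub1b, Cenpe and Plk1. Top2a, which encodes topoisomerase II alpha, had 1.30, 2.27 and 2.57 FPKM in PEM-CKO and 1.27, 1.48 and 1.73 FPKM in PEM-Control (log2 fold change 0.27; limma adjusted p = 0.385). Cdk1, the mitotic kinase, had 0.421, 0.752 and 0.859 FPKM in PEM-CKO and 0.303, 0.413 and 0.578 FPKM in PEM-Control (log2 fold change 0.22; adjusted p = 0.279 in the fit with 10 reads). For both genes, PEM-CKO library 1 lay within the control range, which for Cdk1 rested on control library 3 (log2 fold change 0.30 and adjusted p = 0.169 without it). The other members of the role, the cyclin genes Ccnb1, Ccnb2 and Ccna2, the Aurora kinase genes Aurka and Aurkb, the checkpoint kinase gene Bub1, the survivin gene Birc5, the kinesin genes Kif11 and Kif20a, the ubiquitylation genes Cdc20 and Ube2c, Cenpf and Nusap1, had ratios of group means between 0.908 (Nusap1) and 1.65 (Kif20a).

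Mki67 had the lowest ratio of group means among the mitotic genes, 0.703. This gene encodes Ki-67, a protein of the chromosome surface used as a marker of proliferating cells. It had 26.9, 19.9 and 22.7 FPKM in PEM-CKO libraries 1 to 3 and 43.6, 31.3 and 24.1 FPKM in PEM-Control libraries 1 to 3. The groups overlapped, since control library 3 lay below PEM-CKO library 1, and the difference did not pass (log2 fold change -0.46 ± 0.23, SE; limma adjusted p = 0.233). Without control library 3 the groups were separate and the log2 fold change was -0.66 (adjusted p = 0.0651). Mki67 alone made up between 45.1% and 83.4% of the summed FPKM of the 20 mitotic genes. The 19 others summed to 14.5, 24.2 and 22.6 FPKM in PEM-CKO and to 8.69, 12.4 and 15.7 FPKM in PEM-Control, so their order among the control libraries was the reverse of that of Mki67. The ratio of Mki67 to Top2a was 20.7, 8.78 and 8.83 in PEM-CKO and 34.4, 21.1 and 13.96 in PEM-Control.

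**Figure D3:**
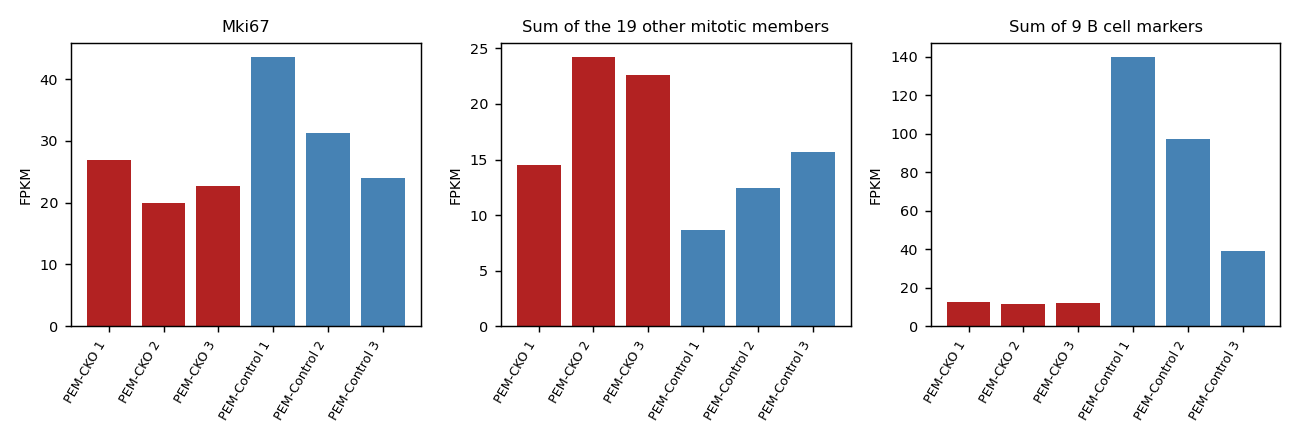
FPKM per library of Mki67 (left), of the 19 other mitotic genes summed (middle) and of 9 B cell marker genes summed (right), each bar 1 library. Control library 1 has the most Mki67 (43.6 FPKM) and the highest B cell sum (140.1 FPKM) with the lowest sum of the other mitotic genes (8.69 FPKM), and control library 3 is at the opposite end of the controls in all 3 panels.

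The promoters of Bub1b, Cenpe, Plk1 and Mki67 are shown because Bub1b, Cenpe and Plk1 were separate between the groups whereas Mki67 was not. Plk1 and Mki67 held letters of both elements, and Bub1b and Cenpe only CCAAT. The windows are the 250 bases before the annotated start in RefSeq (GRCm38.p6), read in the direction of transcription, and capitals mark matches to CHR letters (TTTGAA or TTTAAA) and to CCAAT, which reads ATTGG on the other strand. They lie at chr2:118597961-118598210 (Bub1b, plus strand), chr3:135212313-135212562 (Cenpe, plus strand), chr7:122159185-122159434 (Plk1, plus strand) and chr7:135716380-135716629 (Mki67, minus strand).
Bub1b: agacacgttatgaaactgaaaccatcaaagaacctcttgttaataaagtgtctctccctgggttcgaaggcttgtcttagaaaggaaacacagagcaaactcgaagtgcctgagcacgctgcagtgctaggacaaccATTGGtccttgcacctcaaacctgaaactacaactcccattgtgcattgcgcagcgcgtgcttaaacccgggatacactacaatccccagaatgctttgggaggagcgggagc
Cenpe: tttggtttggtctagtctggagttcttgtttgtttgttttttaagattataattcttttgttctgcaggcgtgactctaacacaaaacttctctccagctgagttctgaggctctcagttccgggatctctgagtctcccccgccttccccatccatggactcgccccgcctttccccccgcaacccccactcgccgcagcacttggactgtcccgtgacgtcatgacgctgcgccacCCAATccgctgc
Plk1: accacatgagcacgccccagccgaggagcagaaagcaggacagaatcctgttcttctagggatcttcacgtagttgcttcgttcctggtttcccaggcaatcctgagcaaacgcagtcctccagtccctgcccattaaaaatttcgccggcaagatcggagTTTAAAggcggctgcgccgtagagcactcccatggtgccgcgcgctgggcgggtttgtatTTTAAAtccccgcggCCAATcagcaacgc
Mki67: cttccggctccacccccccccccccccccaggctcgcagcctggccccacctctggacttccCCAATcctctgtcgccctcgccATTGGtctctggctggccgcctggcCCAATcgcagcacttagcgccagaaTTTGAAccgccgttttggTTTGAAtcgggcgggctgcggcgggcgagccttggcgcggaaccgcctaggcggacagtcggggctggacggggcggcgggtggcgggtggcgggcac

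Bub1b held 1 CCAAT match, Cenpe 1 CCAAT match, Plk1 2 CHR and 1 CCAAT match, and Mki67 2 CHR and 3 CCAAT matches. Promoters of 33 of the 41 genes were found in the RefSeq table, and not those of Tpx2, Ccnd1, Kif20a, Mcm4, Gins2, Ccna2, Ccnd2 and Aurkb. Searched on both strands, CHR letters were in 68.8% of 16 mitotic windows and 23.1% of 13 replication windows, beside 25.2% of all 32851 windows of this length. CCAAT was in 87.5%, 69.2% and 33.8% of them. E2F letters (TTTCGCGC, TTTGGCGC, TTTCCCGC or TTTGGCGG) were in 6.25% of mitotic, 30.8% of replication and 1.96% of all windows. These are matches of letters and show no binding.

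Transcripts of other cell types differed between the groups beside these genes. The 9 listed B cell markers summed to between 11.6 and 12.8 FPKM in PEM-CKO and to 140.1, 97.4 and 38.9 FPKM in PEM-Control libraries 1 to 3, and 7 of the 8 tested fell. The library with the most B cell transcripts was thus the one with the most Mki67. PEM-Control libraries 1 to 3 had the same order for the sum of large peritoneal macrophage markers (1073, 643 and 352 FPKM). Timd4, one of these markers, was also in that order (19.5, 12.0 and 1.19 FPKM). The 6 mast cell markers summed to between 1.89 and 2.27 FPKM in PEM-CKO and between 38.2 and 49.3 FPKM in PEM-Control, and 5 of 5 tested fell. The 6 neutrophil markers summed to between 41.3 and 72.6 FPKM against 159 to 172 FPKM, and 2 of 3 tested fell (S100a8 and Camp). Nearly all of that sum was S100a8, with means of 54.4 and 161 FPKM, while S100a9, Ltf, Ngp and Cxcr2 overlapped and Ngp was at 0 FPKM in all 3 controls and above 0 in 2 PEM-CKO libraries. Markers of large peritoneal macrophages summed to between 195 and 407 FPKM against 352 to 1073 FPKM, mostly of Fn1, and 4 of 7 tested fell. The sum of the T cell markers, at 50.6 to 67.9 FPKM against 32.9 to 76.1 FPKM, overlapped and was mostly Il7r. Of the 8 listed, Cd3d, Cd3e and Cd2 were lower in every PEM-CKO library than in every control, and of the 3 tested Cd2 fell (means of 0.432 and 4.88 FPKM). The 8 macrophage markers summed to between 2682 and 7277 FPKM against 9365 to 11148 FPKM, with Lyz2 as the largest part in the control libraries and PEM-CKO library 2 and Cd68 in PEM-CKO libraries 1 and 3. Of these, 1 of 8 rose (Fcgr1) and limma called no fall. Mesothelial and fibroblast markers summed to between 13.3 and 34.1 FPKM in PEM-CKO and to between 2.12 and 15.0 FPKM in PEM-Control, with a log2 fold change above 0 for 4 of 4 tested, of which limma called 0, with 2 at an unadjusted p below 0.05, and voom called 0. With the replicate number as a block, 2 of these 4 rose (Col1a2 and Col1a1, adjusted p of 0.0277 and 0.0442), 5 of 7 large peritoneal macrophage markers fell, and 1 of 3 neutrophil and 4 of 5 mast cell markers fell. Of 2 listed eosinophil markers none reached the filter. The part of these cells in the values of Mki67 and the other cell cycle genes was not tested.

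Libraries of the same group also differed from each other. PEM-CKO library 1 was the lowest of its group for 17 of 20 mitotic genes, beside 42.6% of all genes, and PEM-Control library 1 was the lowest of its group for 17 of 20, beside 48.4%. PEM-Control library 3, the library with little Timd4, was the highest control for 14 of 20 mitotic and 11 of 14 replication genes, beside 48.2% of all genes. Of all 41 genes, only Tpx2, Bub1b, Cenpe, Plk1, Ccne1 and Cdkn1a had every PEM-CKO library above every control, and only Cdkn1b had every one below. Of all 15415 genes, 9.63% were fully above and 21.3% fully below. No replication gene was among the 6. The count depended on the scaling. When libraries were rescaled with the median of ratios, the median log2 fold change of all tested genes moved from -0.11 to 0.01 and 14 of 41 members were fully above, 9 of them mitotic and 2 replication genes. On that scale 2259 genes of all 15415 were fully above and 2378 fully below.

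**Figure D4:**
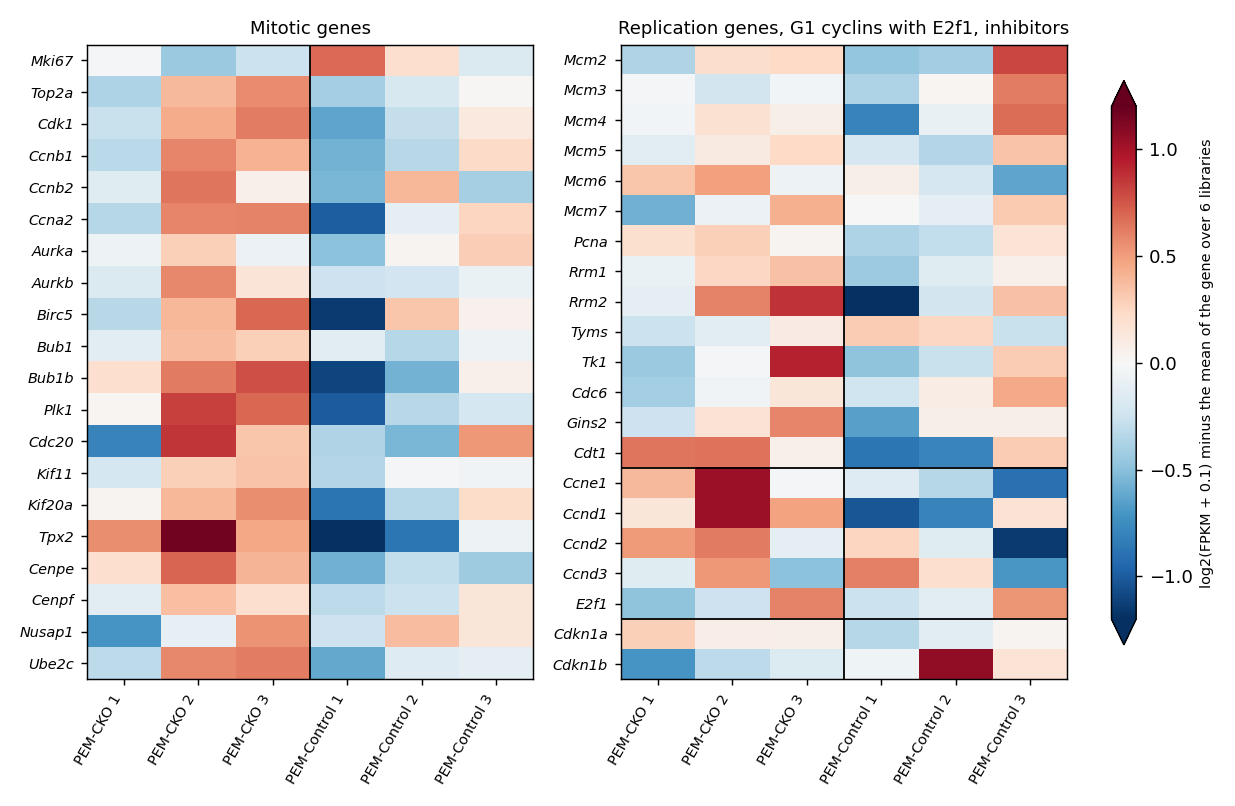
Heat map of the 41 cell cycle genes in the 6 libraries, coloured by log2(FPKM + 0.1) minus the mean of the gene over all libraries (red above, blue below), with a black line between PEM-CKO (left 3 columns) and PEM-Control (right 3 columns). Most mitotic genes other than Mki67 are bluest in control library 1, and several Mcm genes are reddest in control library 3.

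Of the replication genes, limma called 0 of the 11 tested members, with 1 at an unadjusted p below 0.05 (Cdt1), and voom called 0. The 6 helicase genes Mcm2 to Mcm7 summed to 19.5, 21.3 and 20.4 FPKM in PEM-CKO and to 16.1, 17.6 and 24.8 FPKM in PEM-Control, with control library 3 above every other library. Mcm5 had 1.95, 2.33 and 2.54 FPKM in PEM-CKO and 1.85, 1.66 and 2.75 FPKM in PEM-Control (log2 fold change 0.10 with a 95% interval from -0.29 to 0.49; limma adjusted p = 0.731). Without control library 3 the groups of Mcm5 were separate (log2 fold change 0.25; adjusted p = 0.267). Ratios of group means over the 6 helicase genes ran from 0.851 (Mcm3) to 1.43 (Mcm6).

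Pcna, the clamp that holds DNA polymerase on its template and also serves in DNA repair, was the most abundant replication gene, at 145, 155 and 131 FPKM in PEM-CKO and 98.7, 104 and 142 FPKM in PEM-Control. The groups overlapped through control library 3 (log2 fold change 0.34 ± 0.17, SE; limma adjusted p = 0.25), and without that library the log2 fold change was 0.50 and the adjusted p 0.0485. Pcna made up between 77.0% and 79.7% of the summed FPKM of the 14 genes in every library. Cdt1, the licensing factor, was singled out after its values were seen and had the same pattern, with 10.6, 10.6 and 7.02 FPKM in PEM-CKO and 3.63, 3.83 and 8.31 FPKM in PEM-Control (log2 fold change 0.79 ± 0.30, SE; adjusted p = 0.140, and 0.0136 without control library 3).

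Rrm2, the small subunit of ribonucleotide reductase, had 1.004, 1.69 and 2.06 FPKM in PEM-CKO and 0.325, 0.919 and 1.42 FPKM in PEM-Control (log2 fold change 0.48 ± 0.25, SE; limma adjusted p = 0.268). Its values overlapped between the groups through control library 3 (log2 fold change 0.68 and adjusted p = 0.102 without it). With the filter of 10 reads and the replicate number as a block, its adjusted p was 0.0488. The ratio of group means was 1.28 for the large subunit Rrm1, 1.28 for Gins2 of the GINS complex, 1.38 for thymidine kinase Tk1, 0.855 for thymidylate synthase Tyms and 0.769 for the licensing gene Cdc6. The last 3 stayed below the filter.

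**Figure D5:**
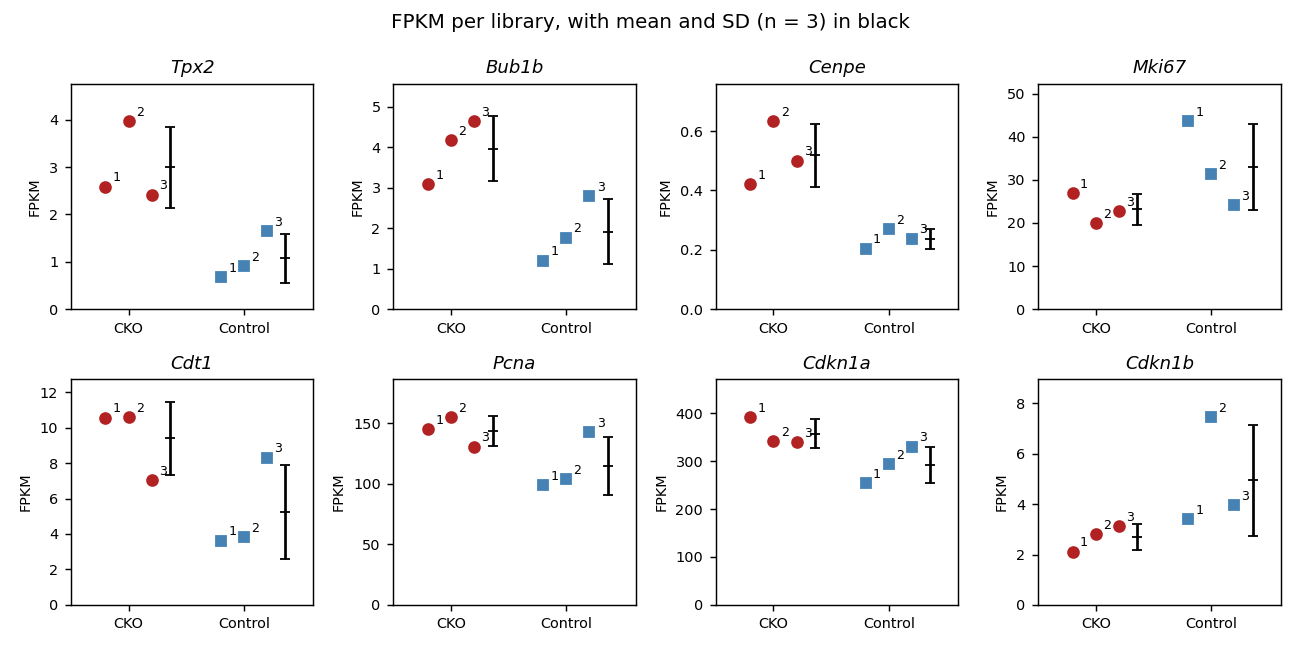
FPKM of 8 cell cycle genes in each library (circles PEM-CKO, squares PEM-Control, numbered by replicate), with the mean and SD of each group (n = 3) in black and a linear axis from 0. Tpx2, Bub1b and Cenpe are separate between the groups, whereas control library 3 reaches the PEM-CKO range for Cdt1 and Pcna and Mki67 overlaps.

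Among the G1 cyclins and E2f1, limma called 0 of the 4 tested genes, with 1 at an unadjusted p below 0.05, and voom called 0. Ccnd2 was the most abundant of the D-type cyclins, at 22.8, 24.7 and 14.8 FPKM in PEM-CKO and 19.1, 14.5 and 7.13 FPKM in PEM-Control (log2 fold change 0.64 ± 0.35, SE; limma adjusted p = 0.273). Control library 1 lay above PEM-CKO library 3, so the groups overlapped. The log2 fold change was 0.27 without control library 3 (adjusted p = 0.476) and 0.92 without control library 1 (adjusted p = 0.108). Ccnd1 stayed below the filter, with 0.461, 0.930 and 0.609 FPKM in PEM-CKO and 0.148, 0.191 and 0.470 FPKM in PEM-Control. Control library 3 was just above PEM-CKO library 1 (log2 fold change 0.39; adjusted p = 0.119 in the fit with 10 reads, 0.0423 without control library 3).

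Ccnd3 was similar in both groups, with 2.98, 4.78 and 2.31 FPKM in PEM-CKO and 5.07, 3.80 and 1.99 FPKM in PEM-Control (log2 fold change -0.07 with a 95% interval from -0.78 to 0.65, and 0.04 after rescaling; limma adjusted p = 0.908). Ccne1, the gene of cyclin E1, was singled out after its values were seen. It had 4.69, 7.33 and 3.50 FPKM in PEM-CKO and 3.19, 2.78 and 1.87 FPKM in PEM-Control, a separation of the groups that did not pass (log2 fold change 0.74 ± 0.25, SE; adjusted p = 0.113). E2f1 had 1.47, 1.76 and 3.23 FPKM in PEM-CKO and 1.74, 1.90 and 3.07 FPKM in PEM-Control (log2 fold change -0.05 with a 95% interval from -0.63 to 0.52, and 0.04 after rescaling; limma adjusted p = 0.906). Library 3 was the highest of either group.

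The CDK inhibitor genes had opposite signs. Cdkn1a, which encodes p21 and is a target of p53 that LPS also induces in macrophages, had 392, 341 and 339 FPKM in PEM-CKO and 254, 294 and 330 FPKM in PEM-Control. Every PEM-CKO library was above every control, by a small margin over control library 3, and the 1.22-fold difference of the means did not pass (log2 fold change 0.29 ± 0.14, SE; limma adjusted p = 0.233). Cdkn1b, which encodes p27, had 2.12, 2.82 and 3.13 FPKM in PEM-CKO and 3.39, 7.46 and 3.97 FPKM in PEM-Control. Every PEM-CKO library was below every control, and the control mean was 1.84 times the PEM-CKO mean (log2 fold change -0.64 ± 0.26, SE; adjusted p = 0.164). Thus limma called 0 of the 2 inhibitors, with 1 at an unadjusted p below 0.05, and voom called 0.

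Further genes of the same processes were taken from 4 lists. Of 62 other mitotic genes in the table, 14 were tested, 1 rose and 2 fell. Pttg1, the gene of securin, rose from 9.33 ± 1.67 to 16.9 ± 2.81 FPKM (mean ± SD, n = 3; log2 fold change 0.79; limma adjusted p = 0.0426). Incenp, which encodes the scaffold of the chromosomal passenger complex, fell from 7.09 ± 0.678 to 4.02 ± 0.926 FPKM (adjusted p = 0.0497), and Cdc25a, a phosphatase gene that acts from G1 onwards, fell from 2.24 ± 0.248 to 1.17 ± 0.156 FPKM (adjusted p = 0.0394). After rescaling none of the 3 passed (adjusted p of 0.0546, 0.0692 and 0.0618), and with the replicate number as a block Incenp (0.0587) and Cdc25a (0.0572) did not. The log2 fold change was above 0 for 5 of the 14 tested genes, beside 36.5% of all tested genes, and with no filter for 44 of the 62, beside 37.8% of all genes.

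Of 65 other replication genes, 39 were tested, 2 rose and 1 fell. Timeless, a replication fork protector, rose from 1.64 ± 0.968 to 6.13 ± 1.65 FPKM (log2 fold change 1.48; limma adjusted p = 0.0340), and Rfc3, a subunit of the clamp loader of PCNA, rose from 3.89 ± 0.651 to 8.70 ± 1.84 FPKM (log2 fold change 0.98; adjusted p = 0.0269). Nasp, a histone chaperone gene, fell from 4.22 ± 0.472 to 2.26 ± 0.458 FPKM (adjusted p = 0.0388). The log2 fold change was above 0 for 18 of the 39 tested genes and, with no filter, for 32 of the 65.

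Of 39 other genes of G1 control, 31 were tested, 1 rose and 5 fell. Gadd45b, a stress-response gene, rose from 55.6 ± 12.1 to 140.0 ± 35.2 FPKM (log2 fold change 1.31; limma adjusted p = 0.0267). Cdkn2b, which encodes the CDK4 and CDK6 inhibitor p15, fell from 1.88 ± 0.114 to 0.157 ± 0.154 FPKM (log2 fold change -1.32; adjusted p = 0.00651), and the growth factor target Myc fell from 12.7 ± 2.79 to 5.26 ± 0.824 FPKM (log2 fold change -1.12; adjusted p = 0.0196). The other 3 that fell were Btg1, E2f6 and Cdk7. With the replicate number as a block 3 rose and 6 fell, the added genes being Rbl1 and Mxd1 (higher) and Gadd45a (lower). In the fit without the block, each of the 9 genes given with a level from these lists lost its call when some single library was left out. Of 19 p53 target and regulator genes, 13 were tested, of which limma called 0 and voom called 0. In limma 6 of the 13 had an unadjusted p below 0.05, beside 2494 of all 9030 tested genes. The log2 fold change was above 0 for 3 and below 0 for 10 of the 13, beside 36.5% of all tested genes above 0. With the replicate number as a block 2 of the 13 fell (Trp53inp1 and Plk3, adjusted p of 0.0330 and 0.0332), beside 503 of all 9030 tested genes.

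Some of these genes share exon bases with a neighbour. In GENCODE M21, 13 of the 41 members overlapped another gene's exons, in each case on the opposite strand. The shared part was 70.7% of the GENCODE exon bases of Gins2 (with Gse1), 31.8% of Kif20a (with Cdc23), 22.8% of Ube2c (with Tnnc2) and 21.9% of Ccnd1 (with LTO1). The lengths behind the FPKM values were 1038 bases for Gins2 and 931 for Ube2c, against 3900 and 2600 exon bases in GENCODE. For Gins2 and Ube2c the percentages are thus not shares of the bases counted. Whether the counting used strand is not given in the sources used here, so reads of these genes and of their neighbours cannot be told apart.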

How the data were processed

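Total RNA of PEMs was sequenced in 6 libraries, grouped by title into PEM-CKO (n = 3) and PEM-Control (n = 3). The authors deposited 1 table with FPKM per gene and library. The other signal columns they deposited, named BaseMean, are group means of normalized read counts. The column names do not give the method of scaling. Its columns of fold change, p-value and q-value hold the authors' own comparison and were not used. The genome build was mm9 per the submitters' processing notes. The aligner, counting and annotation are not given in the sources used here. Depth was recovered as whole reads from the FPKM and the group means, 100% of values being whole within 0.05, and between 36170767 and 42217558 reads were found per library, so that low genes rest on few reads.

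log2(FPKM + 1) of the 9030 genes with a mean of at least 1 FPKM in one group was fitted with limma 3.58.1 (lmFit, eBayes with a trend) in R 4.3.3. All p-values are two-sided and adjusted p-values are Benjamini-Hochberg values over all genes tested (threshold 0.05). The fits were tested on simulated data. An exact permutation test of 3 against 3 libraries cannot go below p = 0.1. Alternatives were no filter, at least 10 reads in every library, a pseudocount of 0.1, rescaling by the median of ratios, voom on the recovered reads, the replicate number as a block, a threshold of 0.1 and each library left out. voom, the pseudocount of 0.1 and the block, each with the filter of 10 reads, were chosen after seeing the data.

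Deviations from the group means of libraries with the same replicate number correlated at 0.109, 0.110 and 0.304 for numbers 1 to 3. Other pairs correlated at -0.332 to 0.291. The highest of these, PEM-CKO library 2 with PEM-Control library 1, lay above numbers 1 and 2. Whether the numbers pair the libraries is therefore not settled, and the block was run only as an alternative to the main test. The labels do not say what a number shares.

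The 41 members and all lists were chosen with earlier results of these data known. All members are accounted for. Values per library are given for members past the threshold and for Mki67, Top2a, Cdk1, Mcm5, Pcna, Rrm2, Ccnd1, Ccnd2, Ccnd3, Cdkn1a, Cdkn1b and E2f1, and also for Bub1b, Cenpe, Plk1, Cdt1 and Ccne1, which were chosen after their values were seen. From each other list, the 2 largest rises and the 2 largest falls past the threshold are named. Exon overlap was taken from GENCODE M21 (GRCm38) by symbol, for all 41 members, and promoters from RefSeq (GRCm38.p6). No coordinates of the deposited table were used.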

Additional observations from a re-analysis of the deposited data

How the results depend on the processing

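The count of all genes past the threshold was 660, 1421 at an adjusted p of 0.1, and 8 to 1278 with single libraries left out, where it was lowest without PEM-Control library 2 and highest without PEM-Control library 3, and 30 and 63 without PEM-CKO libraries 1 and 2. The count of mitotic genes, 1 as reported, was 0 with no filter, 2 after rescaling, with voom, with the replicate number as a block, at an adjusted p of 0.1 and with a pseudocount of 0.1 and 10 reads in every library, 3 with voom and 10 reads and with the block and 10 reads, and 0 to 2 with single libraries left out, being 2 only without PEM-Control library 3. The replication count was 0 except for 1 (Rrm2) with the block and 10 reads and 2 without PEM-Control library 3 (leave-one-out range 0 to 2). Tpx2 did not pass with the block and 10 reads. Of the 40 members with at least 10 reads in every library (all but Birc5), 29 kept their sign under every alternative run. Mcm7 turned from -0.09 to 0.00238 after rescaling and 0.00154 with voom, Ccnd3 from -0.07 to 0.0413 after rescaling, 0.076 with voom and 0.0756 with voom and 10 reads, and E2f1 from -0.05 to 0.0438, 0.063 and 0.062. With single libraries left out, log2 fold changes ran from -0.0518 to 0.116 for Aurka, -0.0278 to 0.299 for Cdc20, -0.178 to 0.0559 for Nusap1, -0.126 to 0.273 for Mcm2, -0.356 to 0.0728 for Mcm3, -0.183 to 0.386 for Mcm4, -0.00158 to 0.247 for Mcm5, -0.25 to 0.075 for Mcm7, -0.0328 to 0.238 for Tk1, -0.349 to 0.16 for Ccnd3 and -0.286 to 0.122 for E2f1. The cause of these moves was not tested. With the replicate number as a block, 855 genes were called in all (352 higher, 503 lower), against 232 higher and 428 lower, and rescaling gave 343 higher and 326 lower. Depth limits the low genes: Birc5 rests on 8 to 66 and Cdc6 on 14 to 36 reads per library.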
